A study of Mus musculus with 16 samples.

Results

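The constitutive proteasome subunit genes were examined in monocytic (M-) and granulocytic (G-) myeloid-derived suppressor cells (MDSCs) of melanoma-bearing mice with and without Nlrp3. Members were all gene symbols of the count files that start with Psma, Psmb, Psmc, Psmd or Psme followed by a digit, without Psmb8, Psmb9 and pseudogene symbols, which gave 43 of 24421 symbols. Of these, 17 encode the core particle (8 of the alpha ring, 9 of the beta ring) and 25 encode the cap, here taken to include its 6 ATPases, 11 non-ATPase subunits, 3 assembly chaperones and 5 alternative activators. The remaining member, Psmc3ip, met the rule by its symbol but encodes a protein of meiotic recombination. The rule used gene symbols and no measured value. The name "constitutive" covered most but not all members, since the rule kept Psmb10, an immune-type catalytic subunit, and Psme1 and Psme2, the interferon-inducible activator.

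The proteasome degrades proteins tagged with ubiquitin. Its core is a barrel of stacked alpha and beta rings, the beta ring carries the catalytic subunits Psmb5, Psmb6 and Psmb7, and in cells of the immune system these can be replaced by Psmb8, Psmb9 and Psmb10. The 19S cap recognises tagged proteins, unfolds them with its ring of ATPases (Psmc genes) and feeds them into the core, and the Psme genes encode activators that open the core without needing ubiquitin. Cells adjust many subunit genes together, in part through the transcription factor Nfe2l1 and, under oxidative stress, its relative Nfe2l2. G-MDSCs resemble neutrophils and M-MDSCs resemble inflammatory monocytes.

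Transcripts were measured by 3′ mRNA sequencing in 16 libraries, from both subsets of 8 mice with B16.F10 melanoma, a transplantable mouse tumor of which 300000 cells were implanted. The groups were WT M-MDSC, Nlrp3-/- M-MDSC, WT G-MDSC and Nlrp3-/- G-MDSC, with 4 mice of the C57BL/6 background per genotype and both subsets taken from the same spleens. All 4 groups bore tumors, so no tumor-free baseline was analysed here. The cells were CD11b-high and either Ly6C+Ly6G- (M-MDSC) or Ly6C-Ly6G+ (G-MDSC). In Nlrp3-/- mice, an EGFP cassette with a polyadenylation signal interrupts Nlrp3 in the germline and so in every cell of the body, so the genotype was not confined to MDSCs. The labels do not give the age of the sequenced mice or the day of collection. Each RNA sample represented a single mouse, so the p-values of the genotype comparisons within a subset measure the spread between mice. The tests that join both subsets treated the 2 libraries of a mouse as separate.

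Libraries held 2295967 to 6079866 counts assigned to genes (median 4839508.5), so that 3 counts corresponded to 0.493 to 1.31 CPM, the counts of a gene relative to the total of its library. Nlrp3 itself had 219 to 632 counts in WT and 4 to 11 in Nlrp3-/- M-MDSC libraries, and 744 to 1365 against 21 to 59 in G-MDSC libraries, so each label matched its Nlrp3 count. Defining markers matched the sorted subsets: Ccr2 lay at 794 to 1563 CPM in M-MDSC and 3.39 to 12.4 CPM in G-MDSC libraries, and Cxcr2 at 852.7 to 3194 CPM in G-MDSC and 0.209 to 3.52 CPM in M-MDSC libraries. Within G-MDSCs, Cxcr2 ran from 1852 to 3194 CPM in WT and from 852.7 to 1543 CPM in Nlrp3-/- libraries, without overlap. The 8 monocyte genes summed to 639.6 to 947.5 CPM in WT and 1025 to 1228 CPM in Nlrp3-/- G-MDSCs. Sums of the 9 neutrophil genes overlapped there, at 112399.7 to 148669.2 and 135747.0 to 169827.1 CPM. WT M-MDSC replicate 2 stood apart, with 8952 summed CPM of 9 neutrophil genes against 1451 to 1872 in the other WT M-MDSC libraries and 764 summed CPM of 15 proliferation genes against 270.4 to 287.8. The 14 dendritic cell and macrophage genes (none at 0 in M-MDSCs, Xcr1 at 0 in Nlrp3-/- G-MDSCs) summed to 152.7 to 193.5 CPM in WT and 264.8 to 422.9 CPM in Nlrp3-/- M-MDSCs, and to 293.1 to 454.7 against 685.6 to 857.1 CPM in G-MDSCs. The part of these marker differences in the results below was not tested. In bulk libraries, fewer cells of a type and less RNA per cell cannot be told apart.

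Core and cap transcripts were present in all 4 groups and were fewer in G-MDSCs than in M-MDSCs. The 17 core genes summed to 1940 ± 185 CPM (SD, n = 4) in WT and 2099 ± 262 CPM in Nlrp3-/- M-MDSCs, against 1035 ± 69.7 and 1262 ± 68.5 CPM in WT and Nlrp3-/- G-MDSCs. The 25 cap genes summed to 2431 ± 243, 2495 ± 366, 1730 ± 190 and 1868 ± 173 CPM in the same order. Every M-MDSC library (core 1687 CPM or more) lay above every G-MDSC library (core 1329 CPM or less), whereas the cap sums came closer, from 2106 CPM upwards in M-MDSCs and up to 2103 CPM in G-MDSCs. Cap transcripts per core transcript were 1.26 ± 0.105 and 1.19 ± 0.102 in WT and Nlrp3-/- M-MDSCs and 1.67 ± 0.0983 and 1.48 ± 0.128 in WT and Nlrp3-/- G-MDSCs, and the G-MDSC ratios (1.38 to 1.78) began where the M-MDSC ratios (1.09 to 1.38) ended. Sums over members were not tested. All of these CPM were scaled by the trimmed mean of M-values (TMM) over the 16 libraries; as plain shares of counts the members took 0.481 to 0.605% of WT and 0.555 to 0.698% of Nlrp3-/- M-MDSC libraries, against 0.199 to 0.225% and 0.231 to 0.268% of the G-MDSC libraries.

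**Figure D1:**
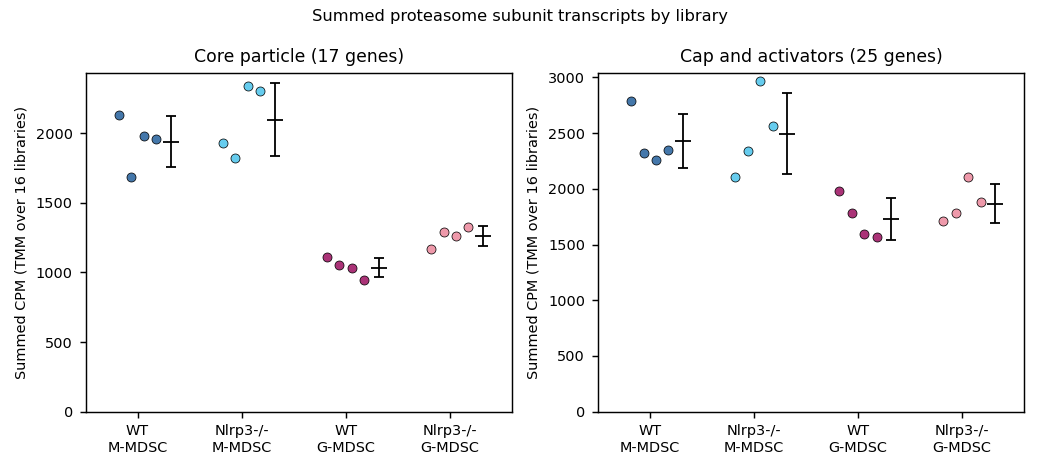
Summed CPM (TMM over 16 libraries) of the 17 core genes (left) and the 25 cap and activator genes (right). Points are the 4 libraries of each group, in order of replicate, and bars give the mean ± SD; core sums of the G-MDSC libraries all lie at or below 1329 CPM and those of the M-MDSC libraries at or above 1687 CPM.

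The first comparison asked how the 2 subsets differ. With an adjusted p below 0.05 and a fold above 1.5 (called, in edgeR's quasi-likelihood test over all genes), 18 of 40 tested members were lower and 0 higher in G-MDSCs than in M-MDSCs of WT mice, while 24.6% of all tested genes were called lower and 24.7% higher. In Nlrp3-/- mice 18 members were lower and 1 higher, beside 25.6% and 26.4% of all genes. The median log2 fold change of the members was -0.70 in WT and -0.57 in Nlrp3-/- mice, against -0.06 and -0.01 over all tested genes. Without WT M-MDSC replicate 2, the library that stood apart, 16 members were lower in WT, with a median of -0.59. A shift was not particular to that library. Leaving out any 1 of the 8 WT libraries gave 16 to 19 called members and medians of -0.66 to -0.585, all smaller in size than -0.70. At an unadjusted p below 0.05 (edgeR) there were 23 of 40 members in each genotype. The same held for 6138 of all 10696 tested genes in WT and 6415 in Nlrp3-/- mice, a similar share. DESeq2 called 19 members lower in WT and 20 lower in Nlrp3-/- mice with 0 higher in either. Of the 18 genes lower in each genotype, 13 were shared (72.2% of each list): Psma4, Psma7, Psmb4, Psmb6, Psmb10, Psmc3, Psmc4, Psmc5, Psmd1, Psmd2, Psmd6, Psmd7 and Psme1. The 4 groups of these comparisons are separate libraries, but the M- and G-MDSC libraries of a number come from the same mouse. The main fit did not use this pairing. With the mouse as a block, the 18 calls in WT remained and 4 more members were called lower. In Nlrp3-/- mice the 19 calls remained and 0 were added.

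The largest difference of the core was that of Psmb10, the immune-type beta subunit. It measured 187.3, 97.17, 145 and 151.8 CPM in WT M-MDSC and 47.74, 20.98, 26.41 and 28.41 CPM in WT G-MDSC replicates 1 to 4. In Nlrp3-/- mice the M-MDSC values were 156.8, 152.7, 224.5 and 206.1 CPM and the G-MDSC values 50.36, 46.9, 53.66 and 45.37 CPM. No G-MDSC library reached an M-MDSC library, and the log2 fold change was -2.23 ± 0.24 (SE; 4.70-fold lower; adjusted p = 1.5e-07) in WT and -1.91 ± 0.23 (3.77-fold lower; adjusted p = 7.1e-07) in Nlrp3-/- mice. Psma7, an alpha-ring subunit, measured 552.6, 378.4, 485.2 and 566.1 CPM in WT M-MDSCs and 209, 186.8, 155.3 and 155.3 CPM in WT G-MDSCs. The groups did not overlap. Replicate 2, the WT M-MDSC library with more neutrophil transcripts, was the lowest of its group for Psma7 but the highest for Psmd1 of the cap (113.9 CPM). The part of its neutrophil transcripts in these values was not tested. Psma7 was 2.81-fold lower (log2 -1.49 ± 0.17; adjusted p = 2.6e-07) in WT and 2.52-fold lower (-1.33 ± 0.16; adjusted p = 9.3e-07) in Nlrp3-/- mice. Psma4, of the same ring, was 2.41-fold lower in WT and 2.48-fold lower in Nlrp3-/- mice. Of the catalytic subunits, Psmb6 was lower in both genotypes (log2 -1.02 ± 0.18 and -1.27 ± 0.18). Psmb5 was called only in Nlrp3-/- mice (log2 0.06 ± 0.32 in WT and -0.78 ± 0.31 in Nlrp3-/-), and its difference between the genotypes is given with the test of that difference. The call of Psmb5 was lost with a correction for GC content and length. It was also lost without Nlrp3-/- G-MDSC replicate 2, 3 or 4 and without Nlrp3-/- M-MDSC replicate 1 or 3. By ring, 3 of 7 tested alpha and 4 of 8 tested beta members were lower in WT mice, and 2 and 5 in Nlrp3-/- mice. Of all tested genes, 24.6% were lower in WT and 25.6% in Nlrp3-/- mice.

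In the cap, 4 of 6 ATPases were lower in each genotype, led by Psmc5 (log2 -1.33 ± 0.27 in WT and -1.27 ± 0.26 in Nlrp3-/-). Of the 11 non-ATPase subunits, 6 were lower in WT and 4 in Nlrp3-/- mice, beside the same 24.6 and 25.6% of all genes. Psmd1, the scaffold subunit that binds ubiquitin receptors, measured 100.9, 113.9, 108.3 and 103.5 CPM in WT M-MDSCs and 36.06, 30.46, 47.98 and 43.98 CPM in WT G-MDSCs, without overlap (log2 -1.43 ± 0.18; 2.69-fold lower; adjusted p = 1.4e-06). Its difference in Nlrp3-/- mice was smaller, at -0.79 ± 0.17. Psmd2, the other scaffold subunit, was 1.79-fold lower in WT and 2.22-fold lower in Nlrp3-/- mice. Psmd6 and Psmd7, both of the lid that removes ubiquitin, were lower by 0.94 ± 0.21 and 0.98 ± 0.21 on the log2 scale in WT and by 1.24 ± 0.22 and 1.18 ± 0.21 in Nlrp3-/- mice. Psmd8, another lid subunit, was called in WT (log2 -0.77, adjusted p = 0.00016) and fell short of the fold minimum in Nlrp3-/- mice (-0.45, adjusted p = 0.012), and Psmd3 was likewise called in WT only (-0.72 against -0.40).

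Of the 3 assembly chaperones of the cap, 0 were called in WT mice (edgeR; 1 at an unadjusted p below 0.05), and in Nlrp3-/- mice Psmd9 was lower (log2 -0.999 ± 0.33, with overlapping groups) and Psmd10 was the single member called higher in G-MDSCs (0.63 ± 0.19; adjusted p = 0.0092). Both were named after their values were seen. Psmd10 measured 25.94, 25.59, 37.8 and 23.12 CPM in Nlrp3-/- M-MDSCs and 40.2, 41.72, 46.83 and 44.32 CPM in Nlrp3-/- G-MDSCs, which did not overlap. The call of Psmd10 was lost with DESeq2, with library sizes alone, with DESeq2's size factors, with upper-quartile scaling, with at least 10 counts in every sample, in the model of the 8 samples of that genotype and without Nlrp3-/- M-MDSC replicate 1, 2 or 4. Of the 5 activator genes, Psme1 was called lower in WT (log2 -0.61 ± 0.16) and in Nlrp3-/- mice (-0.60 ± 0.16), both just beyond the fold minimum. Both calls were lost with a correction for GC content and length, with or without the mouse block. The WT call was also lost without WT G-MDSC replicate 2 or 4 or WT M-MDSC replicate 1. In Nlrp3-/- mice the call was lost without G-MDSC replicate 1 or M-MDSC replicate 2 or 3. Psme4, which encodes PA200, was called lower in Nlrp3-/- mice only. Psmd4, a ubiquitin receptor of the cap, had 235 ± 60.1 and 271 ± 123 CPM in WT and Nlrp3-/- M-MDSCs and 278 ± 82.8 and 314 ± 63.8 CPM in the G-MDSC groups, ranges that overlapped throughout. Psme2, Psme2b and Psme3 had log2 fold changes between -0.25 and -0.09 in both genotypes and were not called.

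**Figure D2:**
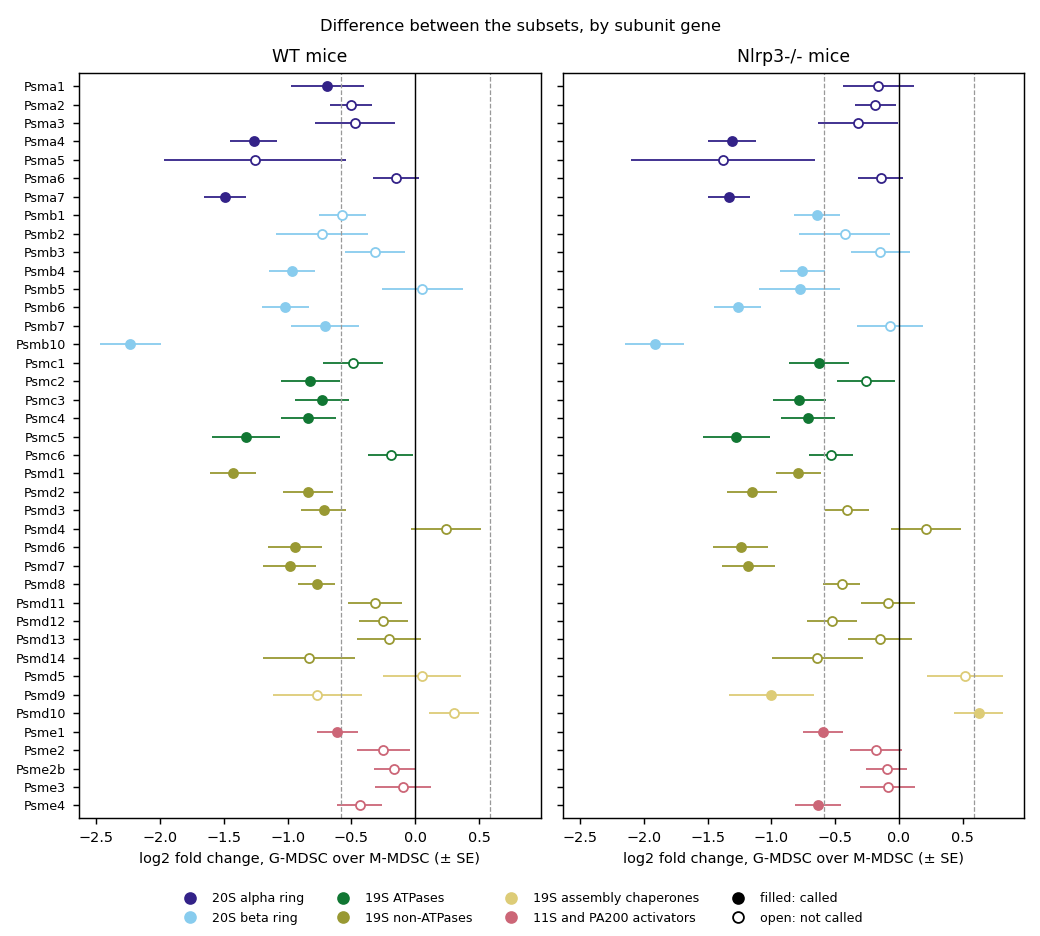
log2 fold change ± SE of G-MDSCs over M-MDSCs for the 40 tested members in WT (left) and Nlrp3-/- mice (right), coloured by member group; filled points were called and dashed lines mark a fold of 1.5. Most points lie left of 0, with Psmb10 farthest at -2.23 and -1.91, and Psmd10 is the filled point on the right.

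The size of the subset difference moved with the scaling of the libraries. The top 20 genes took 27.9 to 43.2% of the G-MDSC counts and 15.2 to 30.0% of the M-MDSC counts, and their part in this was not tested. Without TMM the median of all tested genes moved to -0.80 in WT and -0.84 in Nlrp3-/- mice, and the median of the members to -1.44 and -1.40 with 36 and 38 members called lower. Relative to the median of all genes, the members lay lower by 0.64 with TMM and by 0.63 without it in WT, and by 0.55 under both in Nlrp3-/- mice. Scaling moves all genes of a library nearly alike, so this agreement follows from the calculation. With a correction for GC content and length, members minus all genes was -0.50 in WT and -0.49 in Nlrp3-/- mice. With at least 10 counts in every sample it was -0.80 and -0.70.

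The second comparison asked what the loss of Nlrp3 changed within each subset. From here on CPM are scaled within the 8 libraries of a subset, which puts Psme1 in WT M-MDSCs, for example, at 248 in place of 190 CPM, and M- and G-MDSC values on this scale are not compared. In M-MDSCs, 2 of 40 tested members were called lower in Nlrp3-/- mice, Psma4 and Psme4, and 0 higher, while 7.10% of all genes were called lower and 3.51% higher. In G-MDSCs, 5 members were called lower (Psma4, Psme4, Psmd12, Psmc1 and Psmc6) and 1 higher (Psmd8), beside 11.7% and 4.70% of all genes. The members' shares, 5 and 12.5% lower and 0 and 2.5% higher, were thus near those of all genes. The median log2 fold change was -0.05 in M-MDSCs (19 of 40 positive) and 0.02 in G-MDSCs (20 of 40 positive), against 0.07 and 0.03 over all genes. At an unadjusted p below 0.05 (edgeR) there were 10 of 40 members in M-MDSCs and 11 of 40 in G-MDSCs. Over all tested genes there were 3002 of 9986 and 2997 of 9273. DESeq2 called 4 members lower and 0 higher in M-MDSCs and 5 lower and 1 higher in G-MDSCs.

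Psma4, an alpha-ring subunit of the core, was lower in Nlrp3-/- mice in both subsets. In M-MDSCs it measured 146.3, 100.3, 144.9 and 133.3 CPM in WT and 74.48, 73.98, 70.91 and 56.54 CPM in Nlrp3-/- replicates 1 to 4. In G-MDSCs the values were 40, 29.28, 36.1 and 25.25 CPM in WT and 16.13, 16.93, 14.11 and 14.71 CPM in Nlrp3-/- mice, from 77 to 191 counts per library. No WT library overlapped a Nlrp3-/- library of its subset, and the fold was 1.90 in M-MDSCs (log2 -0.93 ± 0.17; adjusted p = 0.0074) and 2.11 in G-MDSCs (-1.08 ± 0.21; adjusted p = 0.0034). Leaving out any single library kept the call in both subsets.

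Psme4, which encodes the activator PA200 and is known for histone degradation in spermatogenesis and DNA repair, was the other member lower in both. Its M-MDSC values were 105.9, 118.5, 113 and 140.4 CPM in WT and 90.38, 66.43, 54.4 and 72.49 CPM in Nlrp3-/- mice. In G-MDSCs they were 54.36, 47.71, 48.39 and 61.89 CPM in WT and 22.75, 29.58, 29.3 and 19.87 CPM in Nlrp3-/- mice. The groups were separate in both subsets, closest in M-MDSCs, with folds of 1.68 (log2 -0.75 ± 0.18; adjusted p = 0.0225) and 2.09 (-1.06 ± 0.20; adjusted p = 0.0023). The M-MDSC call was lost without WT replicate 2 and without WT replicate 4, which left 1 member called in each case.

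Psmd12, a lid subunit, fell in G-MDSCs from 27.95, 25.75, 21.55 and 24.63 CPM in WT to 15.62, 12.65, 13.35 and 9.17 CPM in Nlrp3-/- mice (1.96-fold; log2 -0.97 ± 0.23; adjusted p = 0.0098). In M-MDSCs its values were 51.04, 52.64, 51.49 and 41.91 CPM in WT and 35.86, 36.44, 25.71 and 33.45 CPM in Nlrp3-/- mice, which did not overlap but missed the threshold (log2 -0.58 ± 0.18; adjusted p = 0.052). Psmd12 was called lower in M-MDSCs with DESeq2, with DESeq2's size factors, with at least 10 counts in every sample and in the model of all 16 samples. Psmc1, an ATPase of the cap's base, fell in G-MDSCs from 150, 125.5, 85.25 and 88.68 to 55.85, 58.41, 74.86 and 51.98 CPM (1.86-fold; adjusted p = 0.0083), and Psmc6, another ATPase, from 36.67, 51.5, 37.99 and 36.95 to 20.2, 22.69, 28.53 and 22.93 CPM (1.73-fold; adjusted p = 0.015). For each of these genes every G-MDSC library of Nlrp3-/- mice lay under every WT library. The 5 lower calls of G-MDSCs all remained when any single library was left out. In M-MDSCs neither ATPase was called by edgeR (Psmc1 log2 -0.66 ± 0.23, adjusted p = 0.082; Psmc6 -0.33 ± 0.16, adjusted p = 0.20), whereas DESeq2 called Psmc1 and Psmd12 lower there.

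Psmd8 was the only member called higher. In G-MDSCs it measured 112.3, 103.8, 121.5 and 123.8 CPM in WT and 183.8, 178.8, 158.8 and 172 CPM in Nlrp3-/- mice, again without overlap. The log2 difference of 0.59 ± 0.14 (adjusted p = 0.011) stood just over the minimum of 0.585, and leaving out WT replicate 1 or 2 or Nlrp3-/- replicate 1 or 2 brought it under, with log2 values down to 0.54. The call of Psmd8 was also lost with at least 10 counts in every sample. Without the fold minimum 3 members were higher and 5 lower in G-MDSCs, where 5.72% and 12.3% of all genes were, and 0 and 2 in M-MDSCs, where 3.98% and 7.43% were. The 2 additional members, Psma2 and Psmb4, are core subunits with log2 differences of 0.56 ± 0.16 and 0.53 ± 0.17. Groups that did not overlap were found for 2 higher and 4 lower members in M-MDSCs (9.72% and 11.1% of all tested genes) and for 3 higher and 5 lower members in G-MDSCs (8.84% and 14.2%).

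**Figure D3:**
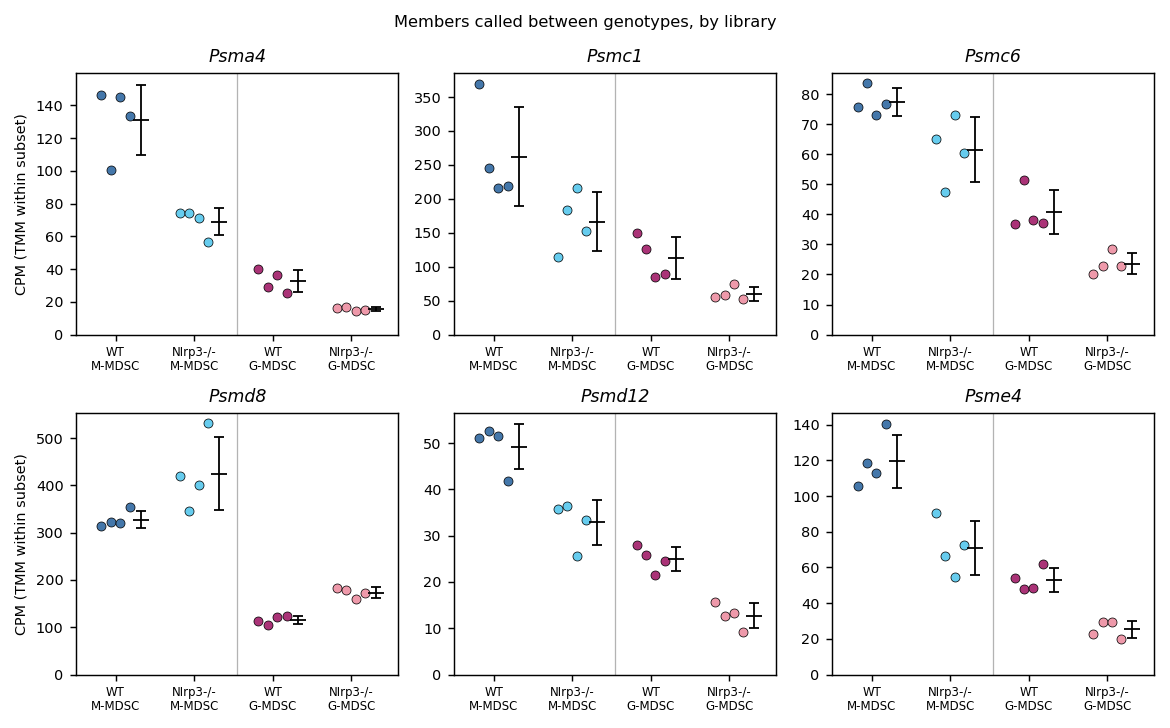
CPM (TMM within subset) of the 6 members called between genotypes in either subset; points are the 4 libraries of each group in order of replicate, bars the mean ± SD, and the vertical line separates the 2 scales. For Psma4 and Psme4 the Nlrp3-/- libraries lie under all WT libraries in both subsets, and for Psmd8 they lie above them in G-MDSCs.

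The catalytic subunits and the immune-type members were not called in either genotype comparison. In M-MDSCs, Psmb5 had a log2 difference of 0.29 ± 0.25, Psmb6 of 0.35 ± 0.18 and Psmb7 of -0.64 ± 0.27, with adjusted p of 0.46, 0.21 and 0.13. Psmb10 stood at 190 ± 48.0 CPM in WT and 245 ± 43.5 CPM in Nlrp3-/- M-MDSCs (log2 0.37 ± 0.21; adjusted p = 0.25), and Psme1 and Psme2 at 0.19 ± 0.15 and -0.04 ± 0.18. In G-MDSCs, Psmb5, Psmb6 and Psmb7 differed by -0.67 ± 0.34, -0.003 ± 0.18 and -0.13 ± 0.25. Psmb10 averaged 24.1 ± 8.68 CPM in WT and 36.3 ± 2.81 CPM in Nlrp3-/- G-MDSCs and did not pass the test (log2 0.59 ± 0.24; adjusted p = 0.099). WT replicate 1, at 36.67 CPM, lay within the Nlrp3-/- range and the other WT libraries at 16.81 to 22.48 CPM. Without WT replicate 1 it was called, at a log2 of 0.86, as it was in the model of all 16 samples (log2 0.67; adjusted p = 0.049, edgeR). Psme1 and Psme2 differed by 0.09 ± 0.17 and -0.09 ± 0.22. Leaving out Nlrp3-/- M-MDSC replicate 1 raised the count in M-MDSCs to 6 lower, with Psmb7 among them at -0.91, and 2 higher.

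**Figure D4:**
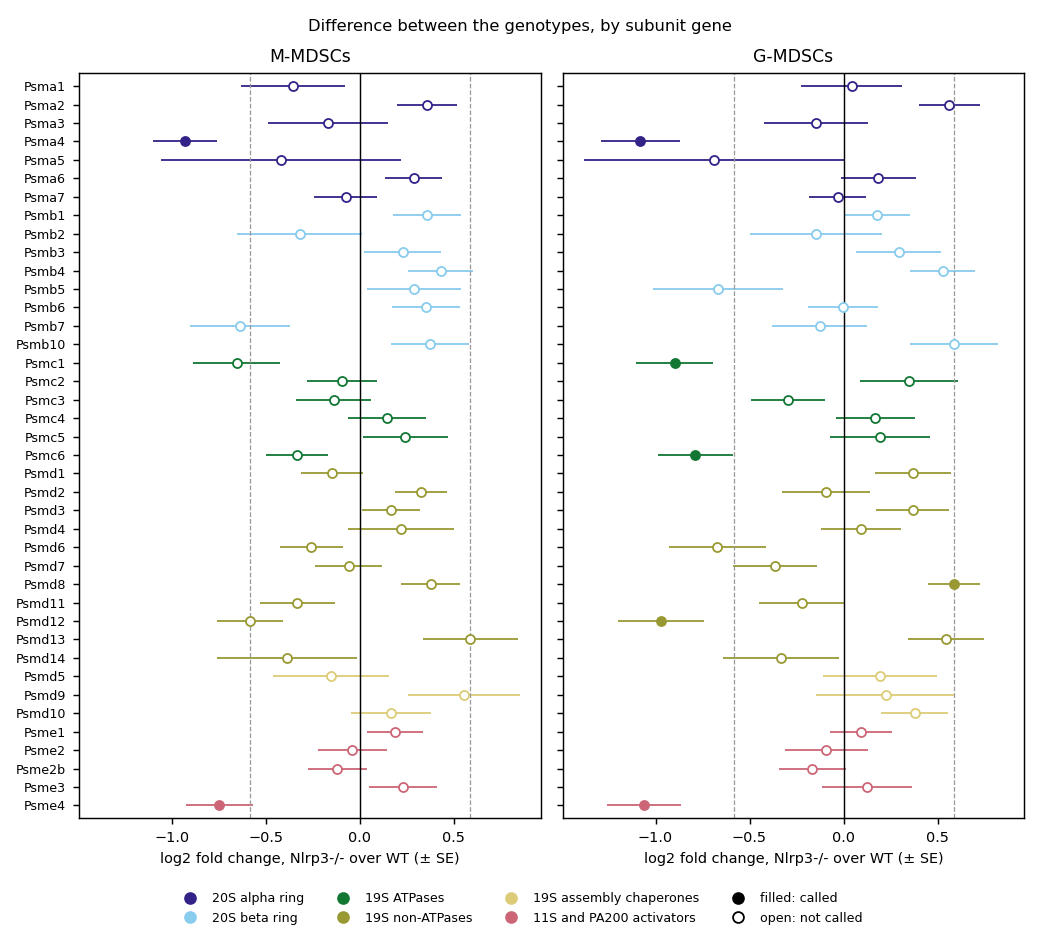
log2 fold change ± SE of Nlrp3-/- over WT for the 40 tested members in M-MDSCs (left) and G-MDSCs (right), coloured by member group; filled points were called and dashed lines mark a fold of 1.5. Points scatter on both sides of 0, apart from the 3 assembly chaperones, which all lie above 0 in G-MDSCs, and the filled points at the left are Psma4 and Psme4 in both panels with Psmc1, Psmc6 and Psmd12 in G-MDSCs.

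Of all tested genes, 7.10% were called lower and 3.51% higher in Nlrp3-/- M-MDSCs, and 11.7% and 4.70% in Nlrp3-/- G-MDSCs. In the alpha ring 1 of 7 tested members (14.3%) was lower in each subset, with medians of -0.17 in M-MDSCs and -0.03 in G-MDSCs. In the beta ring 0 of 8 were called in either (edgeR), and 2 of 8 had an unadjusted p below 0.05 in each subset, with medians of 0.32 and 0.09. Over all tested genes, 3002 of 9986 in M-MDSCs and 2997 of 9273 in G-MDSCs had such a p. Of the 6 ATPases 0 were called in M-MDSCs by edgeR (1 at an unadjusted p below 0.05, and Psmc1 by DESeq2) and 2 lower in G-MDSCs. Of the 11 non-ATPase subunits 0 were called in M-MDSCs by edgeR (4 at an unadjusted p below 0.05, and Psmd12 by DESeq2), and 1 was lower and 1 higher in G-MDSCs. Summed core transcripts, on the scale over 16 libraries and not tested, ran from 943 to 1110 CPM in WT and from 1168 to 1329 CPM in Nlrp3-/- G-MDSCs without overlap, whereas the cap sums overlapped (1572 to 1977 and 1707 to 2103 CPM), as did both sums in M-MDSCs. A sum rests most on its abundant genes. Of the 15 core members tested in G-MDSCs on the scale within the subset, 7 had a positive and 8 a negative log2 fold change, with a median of -0.003. Fold changes of the members followed their GC content: Spearman's rho across the 40 members was 0.55 in M-MDSCs and 0.27 in G-MDSCs, and 0.40 in both over all annotated genes, which share libraries and are not independent. The 5 members that fell have transcripts of 37.0 to 49.5% GC, in a range of 37.0 to 58.3% over the tested members. After a correction for GC content and length, Psma4 alone remained called in M-MDSCs (Psme4 at -0.35), and Psma4, Psmc1 and Psmd12 remained called lower in G-MDSCs (Psme4 at -0.54, Psmc6 at -0.45). Psmd8 was then no longer called (0.40) and Psma2 was the 1 member called higher.

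The promoters of the 5 members called lower in G-MDSCs, 2 of them also in M-MDSCs, are printed as a description. These promoters were chosen by that result, and a link between sequence and change was not tested. They were taken from RefSeq on GRCm38.p6, the build of the deposited alignments (mm10), and run 5′ to 3′ on the plus strand from 250 bases before to 30 bases after the annotated start. Capitals mark matches to TGACNNNGC, the core of the antioxidant response element bound by Nfe2l1 and Nfe2l2 with small Maf partners, or to CCAAT, the box bound by NF-Y, on either strand.
Psma4 (chr9:54950609-54950888): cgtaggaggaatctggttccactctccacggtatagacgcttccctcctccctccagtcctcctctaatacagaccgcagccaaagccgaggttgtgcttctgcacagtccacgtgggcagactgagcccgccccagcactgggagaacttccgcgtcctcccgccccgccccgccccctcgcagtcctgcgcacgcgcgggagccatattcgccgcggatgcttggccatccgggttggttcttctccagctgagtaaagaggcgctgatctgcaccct
Psmc1 (chr12:100109952-100110231): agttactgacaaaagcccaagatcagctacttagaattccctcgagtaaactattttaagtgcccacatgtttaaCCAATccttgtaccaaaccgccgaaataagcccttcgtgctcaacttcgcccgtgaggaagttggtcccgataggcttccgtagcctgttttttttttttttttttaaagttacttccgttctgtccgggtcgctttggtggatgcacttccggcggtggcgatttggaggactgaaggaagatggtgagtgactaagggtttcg
Psmc6 (chr14:45329574-45329853): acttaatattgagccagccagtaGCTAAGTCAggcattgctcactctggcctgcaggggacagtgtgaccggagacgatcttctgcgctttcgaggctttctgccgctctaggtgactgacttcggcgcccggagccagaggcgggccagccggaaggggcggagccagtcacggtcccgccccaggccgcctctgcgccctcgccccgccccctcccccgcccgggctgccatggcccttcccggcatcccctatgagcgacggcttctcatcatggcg
Psmd12 (chr11:107479278-107479557): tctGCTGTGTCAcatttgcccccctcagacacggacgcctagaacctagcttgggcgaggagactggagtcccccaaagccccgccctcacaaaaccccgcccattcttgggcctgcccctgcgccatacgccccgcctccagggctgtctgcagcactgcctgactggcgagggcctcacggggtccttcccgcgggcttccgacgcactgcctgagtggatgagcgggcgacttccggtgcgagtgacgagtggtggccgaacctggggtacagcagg
Psme4 (chr11:30771525-30771804): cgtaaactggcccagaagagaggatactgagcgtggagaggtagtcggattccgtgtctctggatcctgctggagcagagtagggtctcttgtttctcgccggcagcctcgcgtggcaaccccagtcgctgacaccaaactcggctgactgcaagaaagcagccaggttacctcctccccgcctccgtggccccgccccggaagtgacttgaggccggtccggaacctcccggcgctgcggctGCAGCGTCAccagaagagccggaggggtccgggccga
The antioxidant core was found on the minus strand in Psmc6, Psmd12 and Psme4, with its first base 227, 247 and 7 bases before the start, and the NF-Y box on the plus strand of Psmc1 175 bases before it. Psma4 held none of the searched letters in this window. Of the 36 members with a window of 300 bases, 6 (16.7%) held the antioxidant core, namely Psmb5, Psmb6, Psmc6, Psmd9, Psmd12 and Psme4, beside 14.0% of 27025 genes. CCAAT was in 14 members (38.9% against 41.1% of all genes), and GAAANNGAA, the core of the interferon-stimulated response element, in 6 (16.7% against 9.76%), among them Psme1 but not Psmb10. A match is a string of letters and not evidence of binding.

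The third comparison asked whether the genotype difference itself differed between the subsets. None of the 40 members passed (0 by edgeR and 0 by DESeq2, at an adjusted p below 0.05), and 0.0280% of all tested genes did. At an unadjusted p below 0.05 (edgeR) there was 1 member, beside 480 of 10696 tested genes. The smallest p-values belonged to Psmd1 (difference of log2 fold changes 0.64 ± 0.25, unadjusted p = 0.019), followed by Psmb5 (-0.84 ± 0.44, unadjusted p = 0.075) and Psmc2 (0.56), each with an adjusted p of 0.99. For Psmb5 the CPM over 16 libraries were 21.74, 19.41, 30.68 and 21.93 in WT and 35.25, 18.08, 33.83 and 24.79 in Nlrp3-/- M-MDSCs, and 33.39, 30.46, 12.36 and 21.79 in WT and 25.18, 11.11, 17.2 and 11.54 in Nlrp3-/- G-MDSCs. These ranges overlapped between all 4 groups. Psma4 and Psme4, lower in both subsets, differed between subsets by -0.04 ± 0.26 and -0.20. The same contrast compares the subset difference between genotypes, so that the members called between subsets in a single genotype, such as Psmb5, Psmd3, Psmd8 and Psme4, showed no difference between genotypes that passed the test. That edgeR called Psmc1, Psmc6, Psmd12 and Psmd8 in G-MDSCs and not in M-MDSCs is therefore no difference between subsets that passed a test.

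The immune-type subunits were measured against the standard subunits they replace, as shares of the counts of each pair. Psmb10 made up 74.0 ± 6.06% and 85.6 ± 5.70% of Psmb10 and Psmb7 in WT and Nlrp3-/- M-MDSCs, and 50.1 ± 15.0% and 62.8 ± 4.91% in G-MDSCs. In WT G-MDSCs the replicates stood at 72.59, 41.61, 43.43 and 42.69%, so the mean and its SD rest on replicate 1. Psmb8 made up 88.5 ± 1.82% and 85.7 ± 4.70% of Psmb8 and Psmb5 in M-MDSCs and 80.2 ± 10.6% and 91.2 ± 2.51% in G-MDSCs. Psmb9 was the most variable, at 45.3 ± 10.1% and 28.1 ± 22.7% of Psmb9 and Psmb6 in M-MDSCs and 60.0 ± 20.8% and 60.6 ± 13.2% in G-MDSCs, with single libraries from 10.2 to 80.8%. The 11S activator genes held 15.0 ± 0.696% and 15.5 ± 1.57% of the cap transcripts in M-MDSCs and 16.1 ± 2.40% and 15.8 ± 0.824% in G-MDSCs. Psmb8 was lower in G-MDSCs than in M-MDSCs of WT mice (log2 -0.72 ± 0.23; adjusted p = 0.011) and not called in Nlrp3-/- mice (-0.06 ± 0.22), and neither Psmb8 nor Psmb9 was called between genotypes. Beside these, 14 interferon-stimulated genes summed to 862.4 to 946.9 CPM in WT and 1127 to 1432 CPM in Nlrp3-/- M-MDSCs, and to 2269 to 3648 against 3618 to 4873 CPM in G-MDSCs. Shares of a pair compare transcripts of different genes, whose 3′ ends may be primed unequally.

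**Figure D5:**
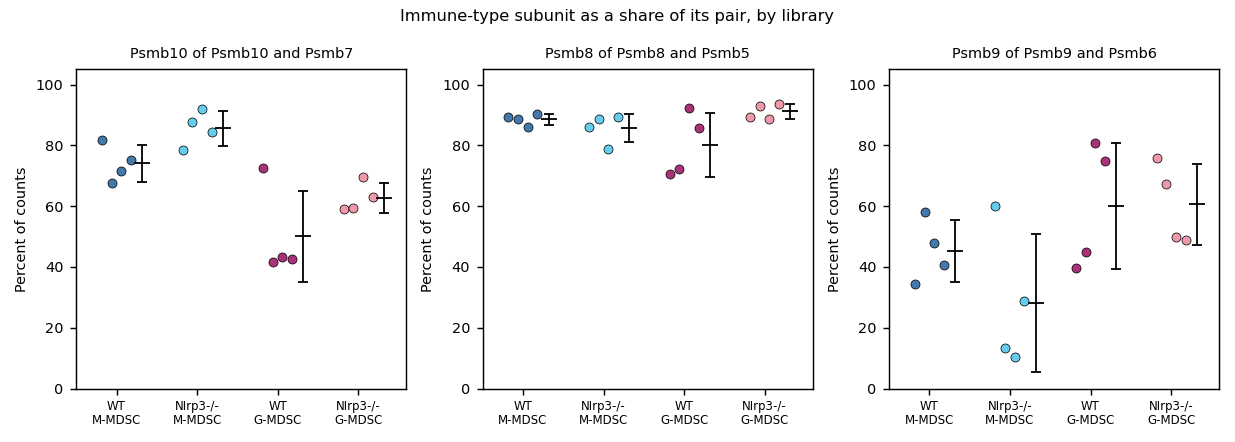
Counts of an immune-type subunit as a percent of the counts of its pair: Psmb10 with Psmb7, Psmb8 with Psmb5, and Psmb9 with Psmb6. Points are the 4 libraries of each group in order of replicate and bars the mean ± SD; Psmb10 shares of M-MDSCs run from 67.6 to 92.0%, and 1 WT G-MDSC library, at 72.6%, lies above the other 3, at 41.6 to 43.4%.

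Members that could not be tested or read with certainty were few. Psma8, the testis alpha subunit, Psmb11, the thymus-specific beta subunit, and Psmc3ip had too few counts for the test. Psma8 averaged 0.582 and 1.02 CPM in WT and Nlrp3-/- M-MDSCs and was at 0 in all G-MDSC libraries, where 3 counts equal 0.493 to 1.31 CPM over all libraries. Psme2 and Psme2b, which share 99.4% of 794 aligned transcript bases, had nearly equal levels (67.0 and 65.0 CPM in WT M-MDSCs), and how reads were divided between them is uncertain. Psmb5 and Psmb11, and Psme1 and Psme2, are neighbours on chromosome 14. Counting was stranded, so that reads of neighbours on opposite strands were counted apart.

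Other genes of the pathway were counted from lists of partners, ubiquitin supply and regulators. Of 18 tested partners, 1 was higher and 1 lower in Nlrp3-/- M-MDSCs, and 0 higher and 1 lower in G-MDSCs. These are 5.56% lower in each subset, beside 7.10 and 11.7% of all genes. The shares higher were 5.56 and 0%, beside 3.51 and 4.70%. AI314180, the mouse gene of Ecm29, which tethers core and cap, was lower in both, from 61.1 ± 2.93 to 32.0 ± 8.34 CPM in M-MDSCs (log2 -0.93 ± 0.21) and from 35.8 ± 5.48 to 15.9 ± 1.36 CPM in G-MDSCs (-1.17 ± 0.20). Psmg4, an assembly chaperone of the core, was higher in Nlrp3-/- M-MDSCs (log2 0.61 ± 0.16). Of 17 ubiquitin genes, Uba6, an alternative ubiquitin-activating enzyme, was lower in M-MDSCs (log2 -1.39 ± 0.22). This is 5.88% of them, beside 7.10% of all genes. Of 12 regulators, Nfe2l2 fell in both subsets (252 ± 55.0 to 139 ± 22.4 CPM, log2 -0.85 ± 0.19, and 405 ± 10.4 to 204.5 ± 10.6 CPM, -0.98 ± 0.13), as did Nfyb, a subunit of NF-Y (-0.79 ± 0.19 and -0.89 ± 0.23). Mafg, a small Maf partner of Nfe2l2, fell in G-MDSCs (-1.24 ± 0.19). Regulators called lower were 16.7% in M-MDSCs and 25% in G-MDSCs, beside 7.10 and 11.7% of all genes. Nfe2l1 was not called in any of the comparisons (log2 -0.04 ± 0.24 and -0.20 ± 0.23 between genotypes).

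Between the subsets, most called regulators were higher in G-MDSCs, while the called partners were mostly lower in WT and divided in Nlrp3-/- mice. In G-MDSCs of WT mice 7 of 18 partners were lower and 2 higher, and in Nlrp3-/- mice 4 lower and 3 higher. The shares lower were 38.9 and 22.2%, beside 24.6 and 25.6% of all genes, and the shares higher 11.1 and 16.7%, beside 24.7 and 26.4%. Pomp, the maturation factor of the core, was lower in both (443 ± 82.9 to 150 ± 62.7 CPM, log2 -1.57 ± 0.26, in WT, and -1.63 ± 0.26 in Nlrp3-/-), as were Psmg4 (-2.40 ± 0.23 and -2.19 ± 0.21) and Usp14, a deubiquitinase of the cap (-1.65 ± 0.25 and -1.40 ± 0.24). Uchl5, another deubiquitinase of the cap, was higher in both (1.10 ± 0.18 and 1.17 ± 0.18). Of 12 regulators 7 were higher and 1 lower in WT and 6 higher and 1 lower in Nlrp3-/- mice. These are 58.3 and 50% higher and 8.33% lower in each, beside the shares of all genes given above. Nfe2l2 was higher (log2 1.42 ± 0.16 and 1.41 ± 0.16) and so was Ngly1, which processes Nfe2l1 (1.54 ± 0.24 and 1.80 ± 0.24), while Keap1, the inhibitor of Nfe2l2, was lower (-1.02 ± 0.25 and -1.04 ± 0.25). Stat3 and Mafk were also higher in G-MDSCs of both genotypes.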

How the data were processed

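The authors sequenced 3′ mRNA libraries (15 or 17 amplification cycles, with no record here of which library had which), aligned reads to mm10 with HISAT2 2.1.0, counted them per gene symbol with strand by HTSeq, and deposited raw counts for each of the 16 libraries. edgeR 3.14.0 is named in the submitters' processing notes. No further processing was applied to the counts before the tests below.

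Genes were filtered with filterByExpr and scaled by TMM, and tested with edgeR 4.0.16 (quasi-likelihood F test, R 4.3.3) with Benjamini-Hochberg adjustment over all tested genes. Genotypes were compared within the 8 libraries of each subset. Subsets, and the difference of the genotype effect between them, were tested in 1 model of all 16 libraries, with no term for the mouse. A gene was called at an adjusted p below 0.05 and a fold above 1.5 (no fold minimum for the difference of effects). The SE is the log2 fold change divided by the square root of F, without its sign. CPM are TMM-scaled, within a subset or over 16 libraries as stated. Libraries held 2295967 to 6079866 counts, and the floor of 3 counts covers counting error only. No 2 libraries of a group held identical values, and the 24 pairs differed by more than sampling noise (chi-square per degree of freedom 6.77 to 50.6).

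The named members were those called in a comparison (up to 12 by smallest p, or the 3 with the smallest p where fewer than 3 were called), with Psmb5, Psmb6, Psmb7, Psmb10, Psme1 and Psme2 in each genotype comparison. Genes of the pathway lists were named where called, up to 4 by smallest p in a comparison, with Psmb8 and Psmb9 beside Psmb10; a single called gene that this rule names is not reported here. Psma2, Psmd4, Psmd9 and other members outside this rule were chosen after their values were seen. The members and lists were chosen with earlier results of these data known. Same-numbered M- and G-MDSC libraries of a genotype came from 1 mouse per the labels, and their deviations from the group means correlated at 0.28 on average in WT (0.10 to 0.45 over 4 mice) and 0.19 in Nlrp3-/- mice (0.007 to 0.39).

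Alternatives were other scalings, DESeq2 1.42.0, edgeR's exact test, other count filters, a replicate or mouse block, a correction for GC content and transcript length (splines with 4 degrees of freedom each, 24054 of 24421 symbols matched to a transcript), other sample sets and leaving out each library. The scripts were tested on simulated counts. Ly6g was not analysed here. Promoter windows (32851, 250 bases before to 50 after the start) came from RefSeq on GRCm38.p6.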

Additional observations from a re-analysis of the deposited data

Results flagged for a closer look

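In 7 of 116 sets of 4 libraries examined (6.03%), the highest or lowest library lay so far from the other 3 that its gap passed Dixon's 95% critical value for sets of 4. Chance gives about 1 in 20 such sets, so the share is near that of chance. On the scale within a subset, Psmc2 stood at 44.14 CPM in Nlrp3-/- G-MDSC replicate 1, against 34.36 to 34.78 CPM in the others. Psmc6 stood at 51.5 CPM in WT G-MDSC replicate 2, against 36.67 to 37.99 CPM. Psmd12 was low in WT M-MDSC replicate 4, at 41.91 CPM against 51.04 to 52.64 CPM. Psme1 was high in WT M-MDSC replicate 1, at 295.3 CPM against 227.4 to 234.8 CPM, and the summed cap of the same library was 2792 CPM on the scale over 16 libraries, against 2261 to 2351 CPM in the other replicates of its group. Psmb10 made up 72.59% of Psmb10 and Psmb7 in WT G-MDSC replicate 1, against 41.61 to 43.43%. The 11S activator genes held 17.04% of cap transcripts in Nlrp3-/- G-MDSC replicate 2, against 15.29 to 15.59%.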

How the results depend on the processing

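Of 567 values of named genes under alternatives other than leaving out a library, 531 kept their direction and their side of the threshold, 17 lost and 5 gained a call and 14 changed sign. Leaving out a library kept 386 of 408, with 9 lost, 4 gained and 9 changed in sign. The cause of these changes was not tested. In M-MDSCs the genotype comparison called 4 members with DESeq2, 1 with a replicate block, 1 with the GC and length correction and 0 with both, and the members' median was 0.05 with library sizes alone. In G-MDSCs it called 1 with the block and the correction together, which was Psma2 (higher), and none of the 6 calls reported remained. Psma4, Psmc1 and Psmd12 then had log2 values of -0.97, -0.95 and -0.95 with edgeR's adjusted p of 0.0545, 0.0524 and 0.0557. The members' median there was 0.145 with library sizes alone, 0.086 with upper-quartile scaling, -0.14 with block and correction, -0.114 with the correction and 0.108 in the model of all 16 samples. Between subsets in WT mice, library sizes alone called 36 members with 0 positive and a median of -1.435. The number positive was 2 with upper-quartile scaling, 2 with at least 10 counts in every sample and 8 with the correction. The WT median was -0.896 with upper-quartile scaling, -0.771 with no filter (over all 43 members, and -0.75 over the 40 tested), -0.818 with at least 10 counts, -0.736 with the mouse block, -0.539 with block and correction and -0.51 with the correction. In Nlrp3-/- mice, library sizes alone called 38 with 0 positive and a median of -1.397, and 5 were positive with the correction, with or without the block. The median was -0.649 with DESeq2's size factors, -0.803 with upper-quartile scaling, -0.648 with DESeq2, -0.661 with at least 10 counts, -0.483 with block and correction and -0.68 in the model of 8 samples. For the difference of the genotype effect, the median was -0.021 with library sizes alone, -0.016 with DESeq2's size factors, -0.018 with DESeq2, -0.031 with block and correction and -0.072 with the correction. With library sizes alone the summed core was 2442, 2877, 774.9 and 970.9 CPM and the summed cap 3052, 3411, 1294 and 1439 CPM (WT M-, Nlrp3-/- M-, WT G- and Nlrp3-/- G-MDSCs). Log2 values that changed sign between genotypes were, in M-MDSCs, Psme2 at 0.0597 with library sizes alone, Psmb5 at -0.0442 with block and correction and -0.0178 with the correction, and Psme1 at -0.0608 with block and correction and -0.0609 with the correction. In G-MDSCs they were Psmb6 at 0.12 with library sizes alone, 0.0159 with DESeq2's size factors, 0.0596 with upper-quartile scaling, 0.0167 with DESeq2, 0.00642 with no filter and 0.0857 in the model of all 16 samples, Psme2 at 0.0221 with library sizes alone, and Psme1 at -0.25 with the correction, with or without the block. Leaving out a library gave 1 to 8 called members (19 to 21 positive, median -0.106 to 0.049) in M-MDSCs and 5 to 8 (18 to 22, -0.022 to 0.069) in G-MDSCs between genotypes, 16 to 19 (3 to 5, -0.66 to -0.585) in WT and 16 to 20 (3 to 5, -0.601 to -0.53) in Nlrp3-/- mice between subsets, and 0 to 0 (14 to 27, -0.142 to 0.136) for the difference of effects. Psme2 then ran from -0.17 to 0.0808 in M-MDSCs and -0.27 to 0.0483 in G-MDSCs, Psmb6 from -0.0887 to 0.0744 and Psmb7 from -0.31 to 0.00807 in G-MDSCs. Of all genes called between genotypes, 66.9% were lower in M-MDSCs and 71.4% in G-MDSCs, against 45.4 and 51.9% with library sizes alone. The same number in WT and Nlrp3-/- mice marks different mice, and deviations of same-numbered libraries correlated at -0.17 in M-MDSCs and -0.19 in G-MDSCs, with 0 of 4 pairs best with their own number. The replicate block left 1 lower member in M-MDSCs and 5 lower and 0 higher in G-MDSCs. Psma8 and other members at few counts are limited by depth.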
